A study of Mus musculus with 8 samples.

Results

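The 3 D cyclin genes Ccnd1, Ccnd2 and Ccnd3, the genes of their kinases Cdk4 and Cdk6, and 5 CDK inhibitor genes, Cdkn1a, Cdkn1b, Cdkn2a, Cdkn2b and Cdkn2c, were examined in RNA-seq of mouse embryonic fibroblasts (MEFs), primary connective tissue cells that are grown from embryos. These 10 genes were taken by symbol, with no cut on their values, from the 50578 genes of the deposited table of read counts. Earlier results of these data were known when they were chosen. All 10 were among the 15154 genes with enough reads for a test. There were 8 libraries, with 2 in each of 4 groups: control MEFs, and MEFs treated with carbidopa, LY-364747 or CHIR-99021 at 10 µM. All cells were labelled wild type (WT), and the study's methods name C57BL/6J embryos without head, tail, limbs and internal organs as their origin. Carbidopa inhibits aromatic amino acid decarboxylase, and CHIR-99021 inhibits the kinase GSK3, a negative regulator of Wnt signalling. LY-364747 is the spelling of the labels for the compound that the methods call LY-364947, an inhibitor of the type I TGF-beta receptor. The methods state a treatment of 7 days for cells used in real-time PCR. For the sequenced cells the length of treatment, and any solvent given to the controls, are not given in the sources used here. The labels call the treated cells hepatic-like, and the paper reports real-time PCR, staining for fat and glycogen, and clustering with hepatic progenitor-like cells. Reads of liver markers were few in these libraries: 7 of 11 hepatocyte genes had at most 3 reads in every library. Alb, which encodes albumin, had 2 and 0 reads in MEFs and 5 to 10 in the treated libraries. Hnf4a had 1 and 2 reads in MEFs and 6 to 10 in the treated libraries.

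In the early part of the cell cycle, D cyclins bind and activate CDK4 and CDK6, and these kinases phosphorylate the retinoblastoma protein RB, which releases E2F transcription factors and lets the cell begin DNA replication. The INK4 proteins, p16Ink4a from Cdkn2a, p15Ink4b from Cdkn2b and p18Ink4c from Cdkn2c, bind CDK4 and CDK6 and keep cyclins away from them. The Cip/Kip proteins, p21 from Cdkn1a and p27 from Cdkn1b, bind cyclin-CDK complexes and stop chiefly CDK2. In fibroblasts, D cyclins are induced by growth factors and adhesion, while p16Ink4a, p15Ink4b, p21 and p19Arf, the other product of Cdkn2a, are known from the arrest and senescence that follow prolonged culture.

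Total counts were 15039566 to 20504338 per library. Carbidopa replicate 1 stood apart: it lay 63.4 from carbidopa replicate 2 (Euclidean distance of log2 CPM over the genes tested), whereas the replicates of the other groups lay 47.4 to 49.9 apart, and carbidopa replicate 2 lay nearer to both LY-364747 libraries (45.6 and 50.2). Results with carbidopa are therefore given with and without replicate 1. Added up, 16 macrophage markers had 1316 and 1355 CPM (read counts scaled to a common library size) in MEFs, 389 to 409 after carbidopa, 290 to 300 after LY-364747 and 98.2 to 105 after CHIR-99021, and 14, 14 and 15 of the 15 markers tested were lower than in MEFs. None of the 16 was at 0 throughout, and between treatments 13 and 12 of the 15 were lower with CHIR-99021 than with carbidopa and LY-364747. Of 10 fibroblast markers, 8 were lower and 1 higher than in MEFs in each treatment, and their summed CPM was at least 34770 in MEFs and at most 11720 in the treated libraries. Of 3 epithelial and 3 endothelial markers with enough reads, the epithelial were higher in 1, 1 and 3 cases and the endothelial lower in 1, 1 and 2 cases with carbidopa, LY-364747 and CHIR-99021. The only hepatocyte marker with enough reads, Trf, was called with carbidopa alone (0.80 on the log2 scale, adjusted p = 0.0231). The part of these shifts in the results below was not tested, and in RNA from whole cultures fewer cells of a type and less RNA per cell cannot be told apart. The labels do not say whether replicates came from separate cultures, so p-values measure the spread between these libraries, which may be technical.

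With carbidopa, Ccnd1 and Ccnd2 fell and the INK4 genes Cdkn2b and Cdkn2c rose relative to MEFs, which made 4 of the 10 genes called (edgeR's quasi-likelihood test, Benjamini-Hochberg adjusted p under 0.05), while 37.7% of all genes tested were called in this comparison, 18% higher and 19.7% lower. Without carbidopa replicate 1, 5 were called: the same 4 genes, and Cdkn1a as lower. Without carbidopa replicate 2, 7 were called, 4 higher and 3 lower, and without MEF replicate 2 only Ccnd1 and Ccnd2 were. With CHIR-99021, Ccnd2 and Ccnd3 fell and Cdkn2b rose, so that 3 were called beside 38.8% of all genes (18.7% higher and 20.1% lower). Without either MEF library or without CHIR-99021 replicate 1, only Ccnd2 was called, and with only these groups in the fit 7 were, namely Ccnd1, Cdk4, Cdk6 and Cdkn1a besides. With LY-364747, none of the 10 was called in the main edgeR fit, beside 31% of all genes. At an unadjusted p under 0.05 there were 3, namely Ccnd2, Cdkn1a and Cdkn2c, beside 40.8% of all genes, and DESeq2 called 2, namely Ccnd2 and Cdkn1a. Other edgeR fits called 1 (RLE scaling), 3 (no filter on low counts), 5 (only these groups in the fit) and 1 (replicate block), so the absence of calls with LY-364747 depended on the fit. The comparisons with MEFs use the same MEF libraries. Both treated libraries lay on one side of both MEF libraries for 7 of the 10 genes with carbidopa, 6 with LY-364747 and 7 with CHIR-99021, beside 68.9%, 72.7% and 76.2% of all genes tested. On the log2 scale the 10 genes had a median change of 0.02, 0.05 and -0.15 in this order, beside 0.04, 0.03 and 0.04 over all genes.

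Between treatments, the main fit called only the inhibitors Cdkn1a and Cdkn2c among the 10 genes, both with CHIR-99021 against the other compounds. Against carbidopa, Cdkn1a was higher and Cdkn2c lower with CHIR-99021, 2 of the 10 genes, beside 14.7% of all genes called (6.62% higher and 8.08% lower). Against LY-364747 the calls were again Cdkn1a, higher, and Cdkn2c, lower, beside 14.1% of all genes (6.45% higher and 7.69% lower). No call was left among the 10 in the comparison with LY-364747 when any 1 of its 4 libraries was left out. Between LY-364747 and carbidopa, the main edgeR fit called none of the 10 and 0.0132% of all genes. At an unadjusted p under 0.05 there were 3, namely Ccnd1, Ccnd2 and Cdk6, beside 9.02% of all genes, DESeq2 called only Ccnd1, and edgeR with genes of low counts kept called all 3. This count turned on the carbidopa library used: 0 of the 10 were called without replicate 1 and 7 without replicate 2. The libraries did not overlap for 4, 8 and 5 genes in these 3 comparisons, beside 52.2%, 64.5% and 37.7% of all genes.

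**Figure D1:**
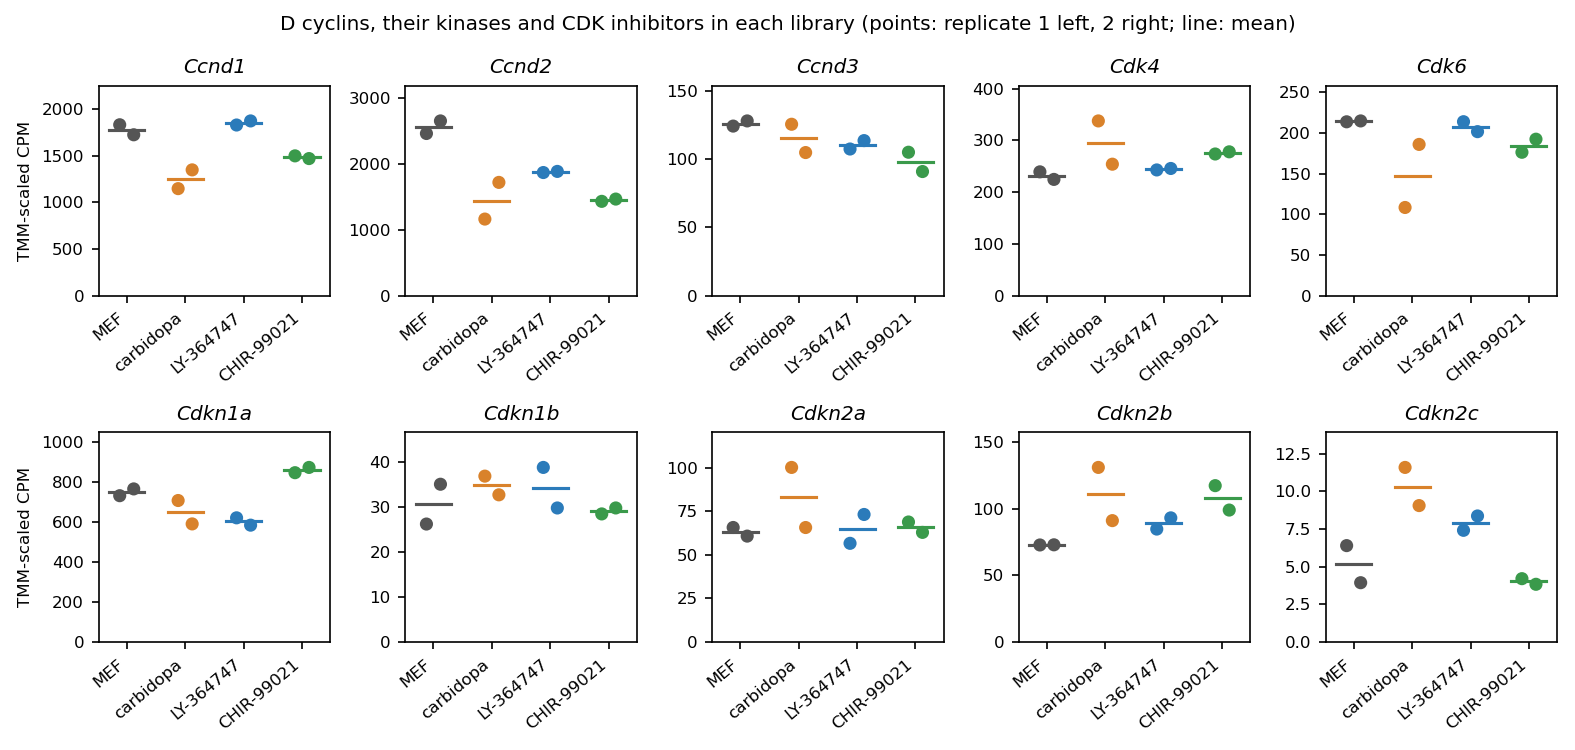
TMM-scaled CPM (linear axis from 0) of each gene in each library; points are libraries, with replicate 1 on the left and 2 on the right, and lines are group means. Ccnd2 was lower in each of the 6 treated libraries than in both MEF libraries, Cdkn2b was higher, and carbidopa replicate 1 had the lowest Cdk6 and the highest Cdk4, Cdkn2a, Cdkn2b and Cdkn2c of the 8 libraries.

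The levels of different genes were compared only per kilobase of exon (CPM after TMM scaling, divided by the length of the gene's exons). That length joins the exons of all annotated transcripts: 4709 bases over 3 transcripts for Ccnd1, 9409 over 8 for Ccnd2 and 8775 over 21 for Ccnd3. Which transcripts were present was not determined, so the order and the shares within roles depend on this length. Averaged over the 8 libraries, the order was Ccnd1 (338), Cdkn1a (201), Ccnd2 (195), Cdk4 (80.7), Cdkn2b (68.4), Cdkn2a (59.0), Cdk6 (13.5), Ccnd3 (12.8), Cdkn1b (7.09) and Cdkn2c (2.55). Compared library by library, Ccnd1 was above Cdkn1a in 8 of 8 libraries, and the replicate ranges overlapped in no group. Cdkn1a and Ccnd2 changed places: group means put Ccnd2 first in MEFs (272 against 211) and with LY-364747 (200 against 170), and Cdkn1a first with CHIR-99021 (242 against 154) and carbidopa (183 against 153), where the replicates overlapped. Cdk4 was above Cdkn2b in 7 of 8 libraries, with overlapping replicates under carbidopa and CHIR-99021, and Cdkn2b above Cdkn2a in 7, with overlap in every group but CHIR-99021. Cdk6 was above Ccnd3 in 7, with overlap under carbidopa. The other neighbours kept their order in all 8 libraries. The highest library was 1.41 times the lowest for Ccnd3 and 3.02 times for Cdkn2c, with the other 8 genes between. The order of the means over all libraries was the same with RLE scaling, which moved no level by more than 1.72%.

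Within each role, 1 or 2 genes carried most of the RNA. Ccnd1 made up 55.2% to 65.9% of the summed D cyclin level per length, Ccnd2 31.6% to 42.6% and Ccnd3 2.04% to 3.75%. The share of Ccnd2 was 39.4% and 42.6% in MEFs and at most 38.0% in every treated library. The D cyclin genes summed to 665 and 663 in the MEF libraries, 382 and 481 after carbidopa, 600 and 611 after LY-364747, and 482 and 478 after CHIR-99021. All 6 treated libraries lay below both MEF libraries, by the least with LY-364747. Cdk4 made up 81.8% to 93.1% of the level of the kinases, and Cdkn1a 95.4% to 97.4% of that of Cdkn1a and Cdkn1b. The INK4 genes summed to 111 and 106 in the MEF libraries, 184 and 125 after carbidopa, 112 and 132 after LY-364747, and 145 and 126 after CHIR-99021, with Cdkn2c at 1.08% to 2.70%. Cdkn2a and Cdkn2b had nearly equal parts in MEFs (50.6% and 47.3%, and 49.0% and 49.6%), while Cdkn2b had the larger part in all 6 treated libraries, up to 58.3% against 40.6% in CHIR-99021 replicate 1.

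**Figure D2:**
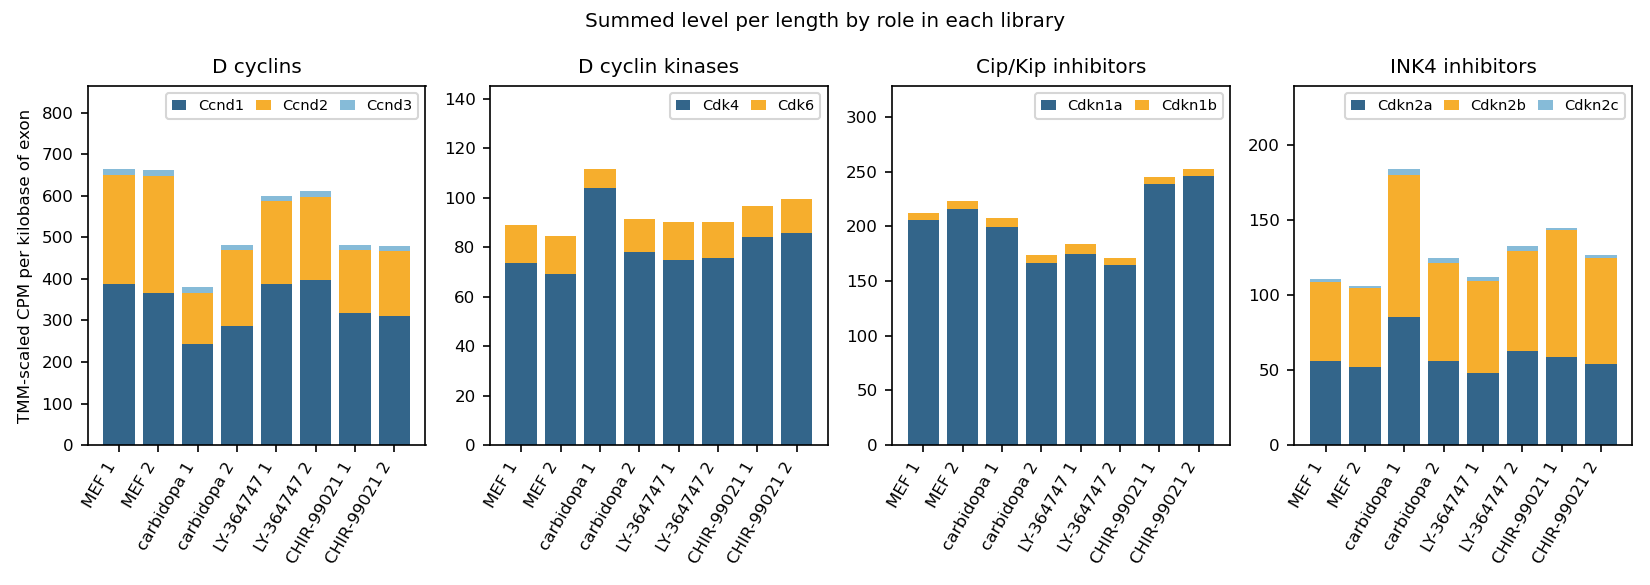
Summed level per length (TMM-scaled CPM per kilobase of exon, linear axes from 0) of the D cyclins, their kinases, the Cip/Kip inhibitors and the INK4 inhibitors, with 1 stacked bar for each library. The D cyclin bars were highest in MEFs (665 and 663) and lowest in carbidopa replicate 1 (382), the library with the highest INK4 bar (184).

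Ccnd2, which encodes cyclin D2, showed the largest called fall from MEFs of the 10 genes (ENSMUSG00000000184, GRCm38 chr6:127125162-127152193, minus strand). The MEF libraries held 2466 and 2657 CPM (TMM-scaled here and in what follows), the carbidopa libraries 1164 and 1722, those of LY-364747 1872 and 1889, and those of CHIR-99021 1433 and 1468. Every treated library was below both MEF libraries, and the carbidopa libraries spanned the CHIR-99021 values. On the log2 scale its change from MEFs came to -0.83 under carbidopa (standard error 0.157, adjusted p = 0.00228) and -0.82 under CHIR-99021 (0.157, 0.00226), a level 1.78 and 1.77 times lower. Both calls were kept in each alternative fit and with any 1 library left out. Under carbidopa it came to -0.57 when replicate 1 was left out (adjusted p = 0.000156) and to -1.14 when replicate 2 was. With LY-364747 the value was -0.45 (95% interval -0.79 to -0.10, adjusted p = 0.053), on the edge of the threshold, and 4 of the 6 alternative fits called it (adjusted p = 5.98e-05 to 0.0633 over the 6). The difference between CHIR-99021 and carbidopa was 0.01 (-0.34 to 0.35), and it changed sign to -0.24 (adjusted p = 0.0446) without carbidopa replicate 1.

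Ccnd1 encodes cyclin D1, the D cyclin best studied in fibroblasts, and is a gene often described as a Wnt target (ENSMUSG00000070348, chr7:144929931-144939925, minus strand). Its CPM in MEFs was 1832 and 1724, while it was 1147 and 1348 under carbidopa, 1829 and 1873 under LY-364747, and 1498 and 1469 under CHIR-99021. Only the carbidopa and CHIR-99021 libraries lay below both MEF libraries. The value for carbidopa on the log2 scale, -0.51 (standard error 0.106), passed the test (adjusted p = 0.0039), as did that of -0.40 when replicate 1 was left out (adjusted p = 0.00172). With CHIR-99021 the value was -0.26 (95% interval -0.50 to -0.03, adjusted p = 0.0749), which passed in 2 of 6 alternative fits, and with LY-364747 it was 0.06 (-0.18 to 0.29, adjusted p = 0.72). Of the 10 genes, Ccnd1 had the smallest p-value between LY-364747 and carbidopa. It was higher with LY-364747 by 0.57 (standard error 0.106), which did not pass in the main edgeR fit (adjusted p = 0.294). It passed in 2 of the 6 alternatives, DESeq2 (0.00314) and edgeR without a filter on low counts (0.000182). Of the exon bases of Ccnd1, 23.4% lie opposite exons of Oraov1 (also named LTO1). Whether the counting used strand is not given in the sources used here. Reads there could therefore be counted on either gene or on neither. Oraov1 had 230 to 625 reads per library and Ccnd1 at least 24358.

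Ccnd3, which encodes cyclin D3, the form best known from blood cells, was the least expressed D cyclin (ENSMUSG00000034165, chr17:47505051-47599691, plus strand). In the MEF libraries it stood at 124 and 128 CPM, after carbidopa at 125 and 105, after LY-364747 at 107 and 113, and after CHIR-99021 at 105 and 90.8. The CHIR-99021 and LY-364747 libraries were below both MEF libraries, and the carbidopa libraries overlapped them. Its log2 fold change with carbidopa was -0.13, and -0.27 without carbidopa replicate 1. The change with CHIR-99021 was -0.36 (standard error 0.118, adjusted p = 0.0326). It ranged from -0.47 to -0.26 when any 1 MEF or CHIR-99021 library was left out, and none of these 4 fits called it (adjusted p = 0.0542 to 0.225).

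Neither kinase gene passed in the main edgeR fit, and with carbidopa both lay on the edge of the threshold. Cdk4, the partner of D cyclins in most tissues (ENSMUSG00000006728, chr10:127063534-127067920, plus strand), stood at 239 and 225 CPM in the MEF libraries, 338 and 254 after carbidopa, 243 and 246 after LY-364747, and 274 and 278 after CHIR-99021. Each treated library was above both MEF libraries, by the most in carbidopa replicate 1. The log2 fold change with carbidopa was 0.35 (95% interval 0.07 to 0.64, adjusted p = 0.0538), and it was 0.13 without replicate 1 and 0.54 without replicate 2, where it passed (adjusted p = 0.00014). It also passed when genes of low counts were kept (0.0118). The exons of Tspan31 lie opposite 19.7% of the exon bases of Cdk4, so how reads there were assigned is uncertain. Tspan31 had 1378 to 2401 reads per library beside 3218 to 7176 of Cdk4.

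Cdk6, whose product shares the targets of CDK4 (ENSMUSG00000040274, chr5:3341485-3531008, plus strand), stood at 214 and 215 CPM in the MEF libraries, 108 and 186 after carbidopa, 214 and 202 after LY-364747, and 176 and 192 after CHIR-99021. Its low value was carbidopa replicate 1, and the other 5 treated libraries were at 176 or more. The log2 fold change with carbidopa was -0.54 (95% interval -0.98 to -0.11, adjusted p = 0.0519), -0.21 without replicate 1 (adjusted p = 0.0878) and -0.98 without replicate 2 (5.28e-06). It passed in DESeq2 (0.0116), without a filter on low counts (0.000235) and with a replicate block (0.0326), and in the other 3 alternative fits it did not. In carbidopa replicate 1, Cdk6 made up 6.93% of the summed kinase level per length, and in the other 7 libraries 13.0% to 18.2%.

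Cdkn1a, which encodes p21, a main target of p53, was the inhibitor with the highest level and was called between compounds in the main fit (ENSMUSG00000023067, chr17:29090976-29100727, plus strand). It reached 732 and 766 CPM in MEFs, while carbidopa gave 708 and 591, LY-364747 622 and 585, and CHIR-99021 847 and 874. The CHIR-99021 libraries were above both MEF libraries, and those of carbidopa and LY-364747 were below. Against MEFs the main fit called no change: 0.20 with CHIR-99021 (95% interval -0.04 to 0.44, adjusted p = 0.173), -0.31 with LY-364747 (-0.56 to -0.07, 0.0521) and -0.21 with carbidopa (-0.45 to 0.04, 0.161). Of 6 alternative fits, 4 called the value with LY-364747 (adjusted p = 0.00121 to 0.0696 over the 6), 1 that with CHIR-99021 (0.0343, only these groups in the fit) and 0 that with carbidopa. Between treatments, CHIR-99021 was higher than LY-364747 by 0.51 (standard error 0.109, adjusted p = 0.0119) and higher than carbidopa by 0.41 (0.109, 0.0327). Without carbidopa replicate 1 the fall from MEFs with carbidopa was -0.34 (adjusted p = 0.00604), and the difference between CHIR-99021 and carbidopa was 0.55 (0.000796). The difference from carbidopa was 0.43 and 0.39 without CHIR-99021 replicate 1 and 2 and no longer passed (adjusted p = 0.14 in each), nor did it in a fit of these groups alone (0.162). That from LY-364747 was 0.48 to 0.55 with any 1 library of the pair of groups left out, with an adjusted p of 0.0674 to 0.0987.

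The sequence before a Cdkn1a start site is shown because TGF-beta signals reach this gene through SMAD proteins and Sp1, and LY-364747 blocks the receptor upstream of SMAD proteins. It is the 250 bases before the start used by RefSeq (GRCm38.p6, chr17:29093519-29093768, plus strand, written 5′ to 3′), and capitals mark matches on either strand to the SMAD box CAGAC and the Sp1 box GGGCGG.
Cdkn1a: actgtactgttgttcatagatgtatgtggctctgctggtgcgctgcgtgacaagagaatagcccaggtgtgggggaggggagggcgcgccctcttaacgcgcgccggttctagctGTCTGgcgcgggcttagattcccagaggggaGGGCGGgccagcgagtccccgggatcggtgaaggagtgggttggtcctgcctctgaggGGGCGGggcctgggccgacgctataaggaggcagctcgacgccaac
The SMAD box lay 135 bases before the start and the Sp1 boxes 104 and 46 bases before it. The window of an upstream Cdkn1a start held 1 SMAD box, 93 bases before that start. Such matches are common: of the 32851 windows of this length in the RefSeq table, 42.2% held a SMAD box and 32.7% an Sp1 box, so a match is a description and not a binding site.

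Cdkn1b, which encodes p27, an inhibitor that rises in resting cells largely through slower protein decay, was called in no comparison (ENSMUSG00000003031, chr6:134920401-134925513, plus strand). Its level was 26.3 and 35.1 CPM in the MEF libraries, 36.9 and 32.7 after carbidopa, 38.8 and 29.8 after LY-364747, and 28.5 and 29.8 after CHIR-99021. The MEF replicates differed by more than the means of any pair of groups. The log2 fold changes from MEFs were 0.18 with carbidopa (95% interval -0.19 to 0.55, adjusted p = 0.414), 0.16 with LY-364747 (-0.21 to 0.53, 0.512) and -0.08 with CHIR-99021 (-0.45 to 0.30, 0.753).

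Cdkn2b, which encodes p15Ink4b and is a textbook target of TGF-beta, rose with carbidopa and CHIR-99021 (ENSMUSG00000073802, chr4:89306299-89311039, minus strand). MEFs held 72.7 and 72.8 CPM, and treated libraries 131 and 91.0 (carbidopa), 84.6 and 93.0 (LY-364747), and 117 and 98.9 (CHIR-99021). All 6 treated libraries were above both MEF libraries, the LY-364747 libraries included. Carbidopa raised it by 0.61 (log2 fold change, standard error 0.161, adjusted p = 0.0142) and CHIR-99021 by 0.57 (0.161, 0.0179), or 1.52 and 1.48 times, and the value for LY-364747 was 0.29 (95% interval -0.07 to 0.65, adjusted p = 0.211). Leaving out carbidopa replicate 1 gave 0.32 (adjusted p = 0.0442). Without MEF replicate 1 or 2, neither change passed, with 0.60 in each case under carbidopa (adjusted p = 0.0849 and 0.0852) and 0.57 and 0.56 under CHIR-99021 (0.093 and 0.0983). The change with CHIR-99021 was 0.45 without CHIR-99021 replicate 1 (adjusted p = 0.146). The 250 bases before its start are shown for the same reason as those of Cdkn1a (RefSeq, GRCm38.p6, chr4:89311033-89311282, minus strand, written 5′ to 3′ on that strand), with the SMAD box in capitals.
Cdkn2b: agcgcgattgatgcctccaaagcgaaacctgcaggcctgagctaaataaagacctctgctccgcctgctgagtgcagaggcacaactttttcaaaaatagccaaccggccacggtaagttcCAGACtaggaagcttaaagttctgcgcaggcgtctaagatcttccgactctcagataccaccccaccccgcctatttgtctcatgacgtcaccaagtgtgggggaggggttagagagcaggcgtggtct
This window held 1 SMAD box, 129 bases before the start, and no match to the Sp1 box, to the TCF/LEF box (CTTTG followed by a pair of A or T letters) or to the E2F box (TTT, a pair of G or C letters, then CG).

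Cdkn2c, which encodes p18Ink4c, had the lowest level per length of the 10 genes and the largest called fold change from MEFs (ENSMUSG00000028551, chr4:109660876-109667189, minus strand). It drew 86 and 61 reads from MEFs, 246 and 194 after carbidopa, 132 and 157 after LY-364747, and 73 and 66 after CHIR-99021. As CPM these were 6.40 and 3.94, 11.6 and 9.05, 7.41 and 8.36, and 4.20 and 3.83. The carbidopa and LY-364747 libraries lay above both MEF libraries, and the CHIR-99021 libraries overlapped the MEF libraries. Carbidopa raised it by 1.01 (log2 fold change, standard error 0.236, adjusted p = 0.00776), or 2.01 times, and the values were 0.62 with LY-364747 (95% interval 0.08 to 1.16, adjusted p = 0.0777) and -0.35 with CHIR-99021 (-0.92 to 0.22, 0.306). Leaving out carbidopa replicate 1 gave 0.82 (adjusted p = 0.0244). It was 0.68 without MEF replicate 2 and did not pass (adjusted p = 0.0852). The value with LY-364747 was 1.00 without MEF replicate 1, which passed, and 0.30 without MEF replicate 2. The difference of CHIR-99021 from carbidopa was -1.36 (standard error 0.237, adjusted p = 0.00428), a level 2.56 times lower, and this was called in every alternative and with any 1 library left out (-1.17 without carbidopa replicate 1). The difference from LY-364747 was -0.97 (0.242, 0.0245), which ranged from -1.06 to -0.88 with any 1 library left out and passed in none of these fits (adjusted p = 0.0911 to 0.13).

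RefSeq gives Cdkn2c a pair of start sites with windows of different kind, shown here because the gene is an E2F target in textbooks and E2F is the output of the pathway (GRCm38.p6, chr4:109666757-109667006 and chr4:109665373-109665622, minus strand, written 5′ to 3′ on that strand, capitals as above and for the E2F box).
Cdkn2c upstream start: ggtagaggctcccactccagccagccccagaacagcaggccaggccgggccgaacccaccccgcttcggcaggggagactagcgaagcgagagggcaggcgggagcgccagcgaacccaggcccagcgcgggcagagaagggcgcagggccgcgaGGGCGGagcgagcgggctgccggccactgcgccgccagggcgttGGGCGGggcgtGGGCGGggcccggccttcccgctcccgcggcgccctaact
Cdkn2c downstream start: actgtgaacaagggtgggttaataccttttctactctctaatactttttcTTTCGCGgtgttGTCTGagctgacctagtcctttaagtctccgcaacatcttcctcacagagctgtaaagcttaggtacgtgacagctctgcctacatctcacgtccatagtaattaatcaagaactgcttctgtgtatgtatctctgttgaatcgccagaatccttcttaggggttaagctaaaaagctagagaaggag
The first window was 77.2% G or C and held Sp1 boxes 95, 51 and 40 bases before the start. The second was 42.8% G or C and held an E2F box 200 bases and a SMAD box 188 bases before the start. An E2F box stood in 5.51% of all windows. Gene-level counts do not say which start was used. RefSeq windows were at hand for 8 of the 10 genes, 12 in all. None was at hand for Ccnd1 and Ccnd2, so their promoters were not searched for any box. Besides Cdkn2c, an E2F box was found in 1 of the 2 Cdkn2a windows. A TCF/LEF box, the site of Wnt signalling, was found for Cdk4 alone among the genes searched. It lay 52 bases before the start, and 14.8% of all windows held such a box. The Cdk6 window held none of these boxes.

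Cdkn2a, which encodes p16Ink4a and, in another reading frame, the p53 activator p19Arf, was not called in the main edgeR fit (ENSMUSG00000044303, chr4:89274471-89294653, minus strand, next to Cdkn2b). The replicates read 65.7 and 60.7 CPM in MEFs, 100 and 65.6 after carbidopa, 56.6 and 73.1 after LY-364747, and 68.8 and 62.8 after CHIR-99021. Carbidopa replicate 1 was high, and the groups otherwise overlapped. The log2 fold change with carbidopa was 0.39 (95% interval -0.03 to 0.81, adjusted p = 0.125), 0.06 without replicate 1 (adjusted p = 0.792) and 0.67 without replicate 2 (0.00165). It passed in 1 of the 6 alternative fits, that which kept genes of low counts (0.0105). With LY-364747 and CHIR-99021 it was 0.04 (-0.38 to 0.46) and 0.06 (-0.36 to 0.48). The counts cannot be divided between the transcripts of p16Ink4a and p19Arf.

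**Figure D3:**
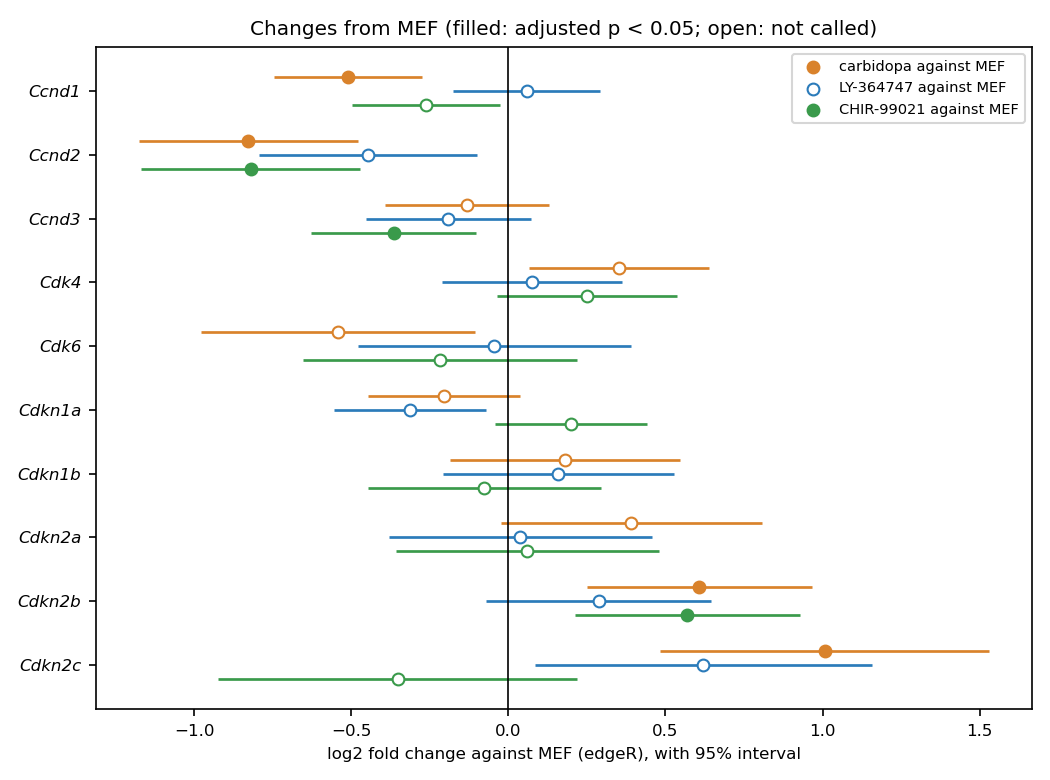
Log2 fold change from MEFs (x axis, edgeR) of each gene with carbidopa, LY-364747 and CHIR-99021, with lines for the 95% interval; filled points had an adjusted p under 0.05. Ccnd2 was lower with carbidopa (-0.83) and CHIR-99021 (-0.82), Cdkn2b was higher with both (0.61 and 0.57), and all 10 points of LY-364747 are open in this fit.

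Leaving out each carbidopa library showed how far the carbidopa results rest on 1 library. Directions did not change for any of the 10 genes. Cdk6 moved most, from -0.98 without replicate 2 to -0.21 without replicate 1, followed by Cdkn2a, from 0.67 to 0.06, and Ccnd2, from -1.14 to -0.57. Ccnd1, Ccnd2, Cdkn2b and Cdkn2c were called either way.

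**Figure D4:**
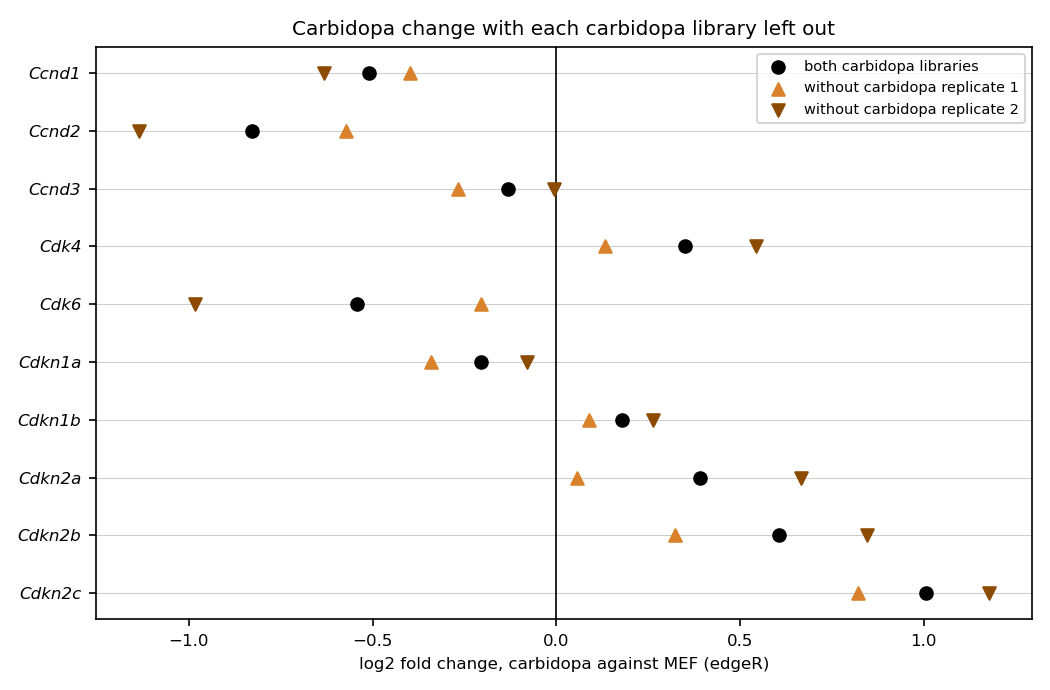
Log2 fold change between carbidopa and MEFs (x axis, edgeR) of each gene with both carbidopa libraries (circles), without carbidopa replicate 1 (triangles up) and without carbidopa replicate 2 (triangles down). The values without replicate 1 lay nearer to 0 than those with both libraries for 8 of the 10 genes, all but Ccnd3 and Cdkn1a.

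The other genes of the RB pathway were followed in a list of 28, all of which were tested. With carbidopa 4 were higher and 4 lower than in MEFs, with LY-364747 4 and 1, and with CHIR-99021 4 and 8. Among all genes tested, 37.7%, 31% and 38.8% were called in either direction, in this order. The share called in the list lay below this background with carbidopa and LY-364747 and near it with CHIR-99021. Its medians on the log2 scale were -0.05, -0.08 and -0.18, beside 0.04, 0.03 and 0.04 over all genes. E2f8, an atypical E2F that represses E2F targets, rose in all treatments, by 1.38 with carbidopa (adjusted p = 5.36e-05), 1.42 with LY-364747 (4.67e-05) and 1.33 with CHIR-99021 (7.22e-05). Cdkn2d, the INK4 gene outside the 10, which encodes p19Ink4d, rose by 1.22 with carbidopa (0.000809) and by 0.88 with LY-364747 (0.00691). Rb1, which encodes RB itself, fell by 0.59 with carbidopa (0.00682), by 0.44 with LY-364747 (0.0313) and by 0.58 with CHIR-99021 (0.00716). Rbl1, which encodes the RB relative p107, fell by 0.60 with carbidopa (0.0127) and by 0.59 with CHIR-99021 (0.0143), and its value with LY-364747 was -0.41 (0.0721). With CHIR-99021 Ccna2, for cyclin A2, had a value of -2.02 (3.3e-06) and Ccne2, for cyclin E2, of -1.29 (0.000573). Ccna2 was also lower with carbidopa (-0.39, adjusted p = 0.0423). Ccne1, for cyclin E1, did not pass with CHIR-99021 (-0.25, adjusted p = 0.129). It was higher with carbidopa (0.45, 0.0132) and with LY-364747 (0.37, 0.0396). Cdkn1c, for p57, the remaining Cip/Kip inhibitor, fell by 1.04 with CHIR-99021 (0.000354). Against carbidopa 1 of the 28 was higher with CHIR-99021 and 6 lower, beside 14.7% of all genes called. Against LY-364747 the counts were 0 and 5, beside 14.1% of all genes. Between LY-364747 and carbidopa edgeR called none of the 28, beside 0.0132% of all genes. These counts were small and moved with single libraries: the 8 called with carbidopa against MEFs became 7 without carbidopa replicate 1, 13 without carbidopa replicate 2, and 4 and 2 without MEF replicates 1 and 2. The 12 called with CHIR-99021 became 7 and 5 without the MEF replicates and 5 and 11 without its own replicates 1 and 2, and the 5 called with LY-364747 became 1, 2, 3 and 2 in the same order. Between CHIR-99021 and carbidopa the 7 called became 2 and 4 without CHIR-99021 replicates 1 and 2, and between CHIR-99021 and LY-364747 the 5 called became 2 without CHIR-99021 replicate 1 and 3 without LY-364747 replicate 1.

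A list of 20 replication and mitosis genes was counted as well. With CHIR-99021 13 were lower and 4 higher than in MEFs (median -0.90), beside 20.1% and 18.7% of all genes tested. Against carbidopa and LY-364747, 12 and 13 were lower with CHIR-99021 and none higher. Of all genes, 8.08% and 7.69% were called lower there. The log2 fold change from MEFs with CHIR-99021 was -2.25 for Mki67, the marker of cycling cells, and -2.04 for Bub1, of the spindle checkpoint. It was -1.90 for Top2a, the topoisomerase of dividing cells, and -1.39 for Rrm2, of nucleotide synthesis. With carbidopa 5 were higher and 6 lower (median -0.03), beside 37.7% of all genes called in either direction. With LY-364747 the counts were 5 and 3 (median 0.12), beside 31%. In every treatment the genes called higher all belonged to the MCM helicase, which opens DNA for replication. Mcm3 rose by 0.89 with carbidopa, 0.80 with LY-364747 and 0.61 with CHIR-99021, and Mcm2 by 0.41, 0.52 and 0.73, Mcm4 by 0.48, 0.57 and 0.33, and Mcm6 by 0.44, 0.50 and 0.32 in this order. Mcm7 rose by 0.48 with carbidopa and 0.54 with LY-364747 and had a value of 0.20 with CHIR-99021 (adjusted p = 0.153). With carbidopa Mki67 fell by 0.94, Rrm2 by 0.80 and Top2a by 0.61. Against MEFs Ccnd2 had values of -0.83 with carbidopa and -0.82 with CHIR-99021, and the medians of this list were -0.03 and -0.90. The Ccnd2 difference between CHIR-99021 and carbidopa was -0.24 without carbidopa replicate 1 and 0.32 without carbidopa replicate 2. Any link between Ccnd2 and this list was not tested. The 17 genes called with CHIR-99021 became 11 without either MEF library or CHIR-99021 replicate 1, the 8 with LY-364747 became 5 without any 1 MEF or LY-364747 library, and the 11 with carbidopa became 9 without carbidopa replicate 1 and 5 without MEF replicate 2. Between treatments, the 12 lower with CHIR-99021 than with carbidopa became 5 and 6 called without CHIR-99021 replicates 1 and 2, and the 13 lower than with LY-364747 became 5 to 8 without any 1 library.

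**Figure D5:**
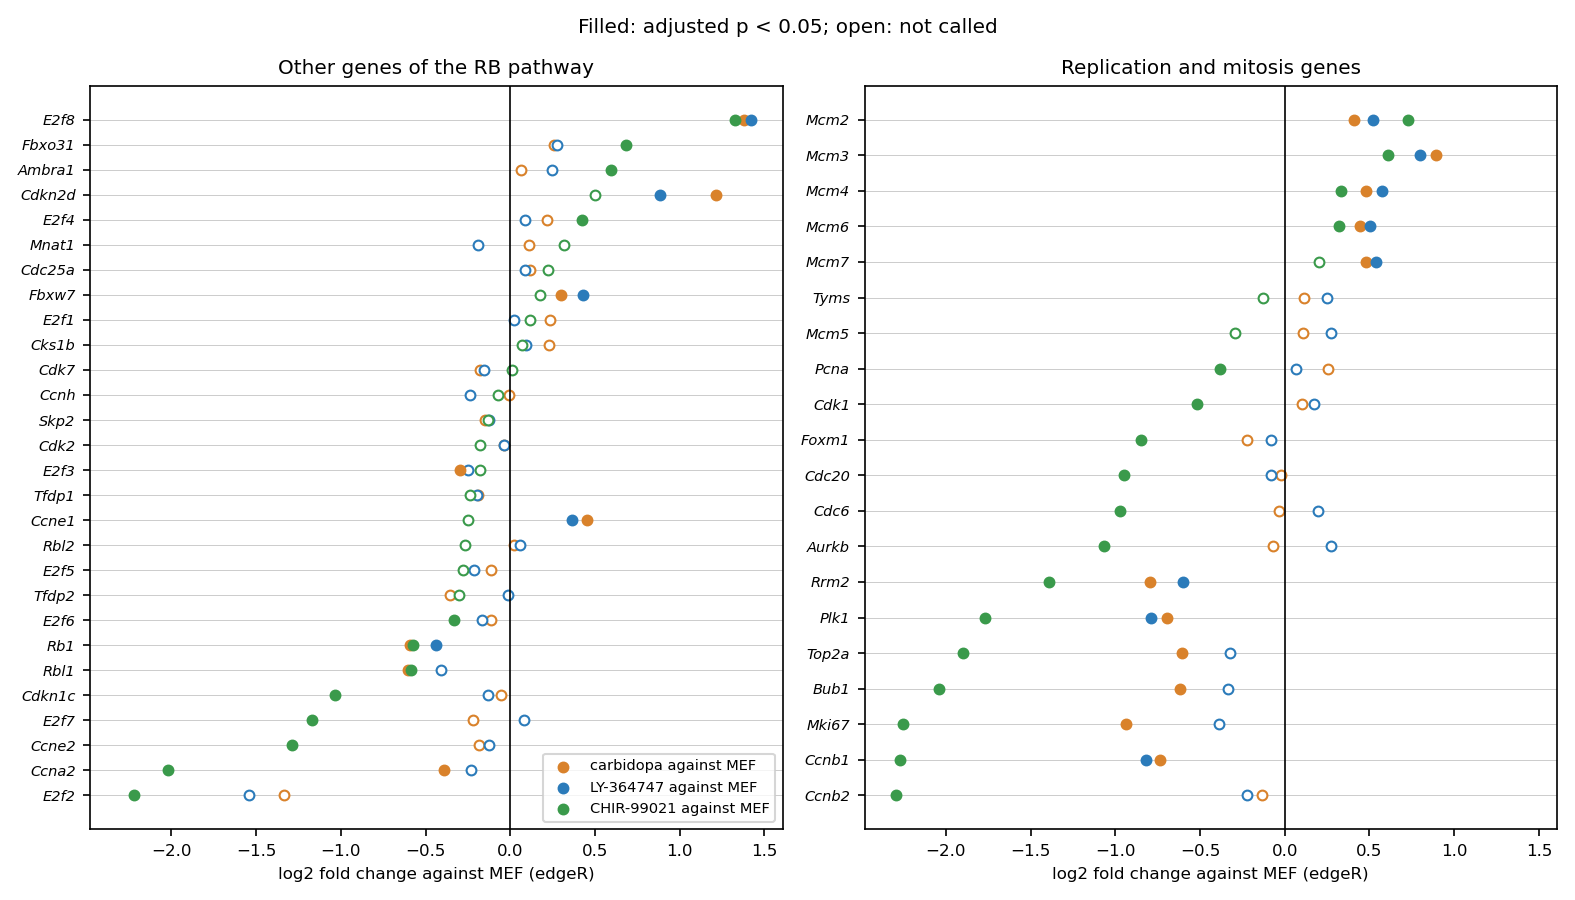
Log2 fold change from MEFs (x axis, edgeR) of 28 other RB pathway genes (left) and 20 replication and mitosis genes (right) with carbidopa, LY-364747 and CHIR-99021; filled points had an adjusted p under 0.05. With CHIR-99021, 13 of the 20 replication and mitosis genes were lower, with Mki67 at -2.25 and Top2a at -1.90, while Mcm3 was higher with all 3 compounds.

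Genes that act on the inhibitors were counted in the same way. Of 15 other p53 targets, 6 were higher and 0 lower with carbidopa, 5 and 0 with LY-364747, and 6 and 1 with CHIR-99021, with medians of 0.41, 0.31 and 0.43 beside 0.04, 0.03 and 0.04 over all genes. In these comparisons 37.7%, 31% and 38.8% of all genes were called in either direction, shares that apply to each list of this paragraph. With carbidopa and CHIR-99021, 18% and 18.7% of all genes were called higher. The p53 target counts lie near the background for both directions together. For higher calls with carbidopa and CHIR-99021 they lie above it. Mdm2, the ubiquitin ligase that p53 induces against itself, rose by 0.46, 0.48 and 1.02 with carbidopa, LY-364747 and CHIR-99021. Gtse1 rose by 0.67, 0.61 and 0.82 in this order. Cdkn1a, the p53 target among the 10, had values of -0.21, -0.31 and 0.20. Of 20 known regulators of the inhibitor genes, 7, 7 and 9 were higher and 6, 6 and 4 lower. Ets1, an activator of Cdkn2a, rose by 1.39, 1.52 and 1.87, and Id3, which holds E proteins off DNA, by 3.21, 2.77 and 2.88. Smad4, the partner of the SMAD proteins that carry TGF-beta signals, fell by 1.71, 1.47 and 1.09, and Myc, which represses Cdkn2b, fell by 0.70 with carbidopa and by 1.15 with LY-364747 and rose by 0.67 with CHIR-99021. Of 10 TGF-beta targets, 10, 10 and 8 were lower and 0, 0 and 1 higher, and of 9 Wnt targets tested (11 listed), 3, 3 and 4 were lower and 1, 1 and 3 higher. In all 6 treated libraries Cdkn2b, though called only with carbidopa and CHIR-99021, stood above both MEF libraries.

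Among the 10 genes, Ccnd2 and Cdkn2b ran opposite over the 8 libraries (Pearson r of log2 CPM -0.96, libraries of 4 groups sharing their scaling). So did Cdk4 and Cdk6 (-0.94) and Cdk6 and Cdkn2a (-0.92). Carbidopa replicate 1 had the lowest Cdk6 and the highest Cdk4 and Cdkn2a of the 8 libraries (108, 338 and 100 CPM). Carbidopa replicate 2 had 186, 254 and 65.6 CPM. How far these r values rest on carbidopa replicate 1 was not tested. The genes whose pattern was most like that of the highest member of each role were sought among 10461 genes with a mean of at least 100 counts. For Ccnd1 they were Ttpal (0.946), Trappc10 (0.922) and Sema6a (0.919), and 9 genes had an r over 0.9. For Cdk4 they were Tmem192 (0.986), Psmb6 (0.986) and Zcrb1 (0.985), with 276 genes over 0.9. For Cdkn1a they were Rnf4 (0.989), Hoxc10 (0.974) and Pwp1 (0.973), with 85. For Cdkn2b they were Ddrgk1 (0.997), Rrp36 (0.995) and Aamp (0.995), with 755. A high r over 8 libraries that fall into 4 groups can come from group levels or from 1 library far from the others.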

How the data were processed

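RNA-seq reads of 8 libraries (4 groups of 2) had been mapped by the authors to mm10 with STAR 2.4.2a, as the submitters' processing notes name it, and counted on genes with featureCounts. The deposited values are raw read counts per gene, without normalization. The methods name a NEBNext Ultra kit and the labels a SMARTER kit. Groups and replicate numbers came from the sample titles. Of 50578 identifiers, 50354 (99.6%) were found in GENCODE M21 (GRCm38, which is mm10), the source of positions and exon lengths here. The release that the authors used is not given in the sources used here.

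Counts were analysed in R 4.3.3 with edgeR 4.0.16: filterByExpr, TMM scaling, and quasi-likelihood tests from 1 fit of all 8 libraries that had no term besides group (biological coefficient of variation 11%). Adjusted p-values are Benjamini-Hochberg over the 15154 genes tested, called under 0.05. Intervals of 95% are those of the fit. TMM-scaled CPM are counts divided by the TMM-scaled library size and set to a common total. The test was also run on simulated data in which few genes were changed, in the carbidopa group alone, and no library stood apart. That run does not cover the many genes called here or the deviation of carbidopa replicate 1. Intervals cover the spread of these libraries only. No molecular identifiers are named in the sources used here, so reads were not taken as independent molecules.

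The genes and lists were chosen with earlier results of these data known. All 10 members are described, and in each other list up to 4 genes with the smallest p in each comparison with MEFs could be named. Mcm2 and Ccne1 were named after their values were seen. The genes most like a member in pattern are the 3 with the highest Pearson r for the member of each role with the highest level per length. Alternatives were DESeq2 1.42.0, RLE scaling, no filter on low counts, at least 10 counts in every library, only the groups compared, a replicate block (also with the LY-364747 numbers crossed, chosen after seeing the data) and each library left out. Promoter windows are from RefSeq (GRCm38.p6).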

Additional observations from a re-analysis of the deposited data

How the results depend on the processing

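With 2 libraries in a group, counts of calls moved both with the choice of fit and with the library left out, and the lone library of an arm was then assumed to vary like those of other groups. With each library left out, the counts ran, in the order carbidopa, LY-364747 and CHIR-99021 against MEFs, then CHIR-99021 against carbidopa, CHIR-99021 against LY-364747 and LY-364747 against carbidopa, as follows. All genes called ranged from 3142 to 7996, 2841 to 3095, 3433 to 4709, 715 to 4632, 663 to 1200 and 2 to 3816. The 10 genes called ranged from 2 to 7, 0 to 1, 1 to 2, 1 to 8, 0 to 0 and 0 to 7. The RB pathway list ranged from 2 to 13, 1 to 3, 5 to 11, 2 to 10, 2 to 5 and 0 to 3, and the replication and mitosis list from 5 to 12, 5 to 5, 11 to 12, 5 to 13, 5 to 8 and 0 to 3.

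Other counts moved by over 1.5 times as follows, and the cause was not tested. DESeq2 called 5 RB pathway genes with carbidopa against MEFs, 2 of the 10 with LY-364747 against MEFs, and 16 genes and 1 of the 10 between LY-364747 and carbidopa. RLE scaling called 1 of the 10 with LY-364747 against MEFs. Without a filter on low counts, 7 of the 10 and 5 RB pathway genes were called with carbidopa against MEFs, 3 of the 10 with LY-364747 against MEFs, 4 between CHIR-99021 and LY-364747, and 329 genes, 3 of the 10 and 1 replication and mitosis gene between LY-364747 and carbidopa. With only the 2 groups compared in the fit, the calls were 5 RB pathway genes with carbidopa against MEFs, 5 of the 10 and 11 RB pathway genes with LY-364747, and 7 of the 10 with CHIR-99021. That fit called 1027 genes, 1 of the 10, 4 RB pathway genes and 7 replication and mitosis genes between CHIR-99021 and carbidopa, 3673 genes, 4 of the 10 and 10 RB pathway genes between CHIR-99021 and LY-364747, and 0 genes between LY-364747 and carbidopa. Requiring 10 counts in every library moved no count by over 1.5 times.

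Replicate numbers gave no clear pairing of the libraries. Deviations of same-numbered libraries from their group means correlated at -0.161 for carbidopa and LY-364747. They correlated at -0.148 for LY-364747 and CHIR-99021 and at 0.128 for carbidopa and CHIR-99021. Correlations with MEFs ran from -0.0377 to 0.0348. Whether libraries were paired in another order cannot be told from these values. With a replicate block, 5 RB pathway genes were called with carbidopa and 1 of the 10 with LY-364747 against MEFs, and no other count given here moved by over 1.5 times. With the LY-364747 numbers crossed in the block, an alternative chosen after seeing the data, 7 of the 10 were called with carbidopa against MEFs, 3 with LY-364747 against MEFs, and 8 RB pathway genes between CHIR-99021 and LY-364747.

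Values that changed sign were close to 0 or rested on 1 library. Ccnd2 between CHIR-99021 and carbidopa turned to -0.001 (DESeq2 and RLE) and -0.004 (10 counts in every library). With each library left out, the log2 differences between CHIR-99021 and carbidopa ranged from -0.24 to 0.32 for Ccnd2, -0.29 to 0.12 for Cdk4, -0.009 to 0.77 for Cdk6, -0.60 to 0.008 for Cdkn2a and -0.27 to 0.25 for Cdkn2b. Those between LY-364747 and carbidopa ranged from -0.19 to 0.075 for Ccnd3, -0.23 to 0.028 for Cdkn1a and -0.22 to 0.155 for Cdkn1b. Against MEFs, Cdkn1b ranged from -0.013 to 0.40 with carbidopa, -0.042 to 0.38 with LY-364747 and -0.27 to 0.145 with CHIR-99021, Cdkn2a from -0.161 to 0.21 with LY-364747 and -0.003 to 0.13 with CHIR-99021, and Cdkn2c from -0.68 to 0.031 with CHIR-99021. Cdkn2a between CHIR-99021 and LY-364747 ranged from -0.158 to 0.22.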
